A study of Mus musculus with 6 samples.

Results

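A group of 10 genes whose enzymes make, desaturate and elongate long-chain fatty acids was examined: Fasn, Acaca, Acacb, Scd1, Scd2, Elovl1, Elovl5, Elovl6, Fads1 and Fads2. They were taken by symbol from a deposited table of 25124 mouse genes, and all 10 were found there. The cells were RAW264.7, an established macrophage line of the mouse, here a control line, derived with a plasmid that encodes the Cas9 nuclease but carries no guide RNA, as a counterpart to E4BP4 knockout cells. All cells were kept in medium with 25 mM glucose and 10% serum and used at fewer than 15 passages. In all, 3 libraries came from cells without IL-4 (M0) and 3 from cells given IL-4 at 10 ng/ml (M2), the cytokine that drives alternative activation of macrophages. Poly(A) RNA was isolated from 200 ng of total RNA and sequenced, and levels are given in TPM, a measure that corrects read numbers for transcript length and library size. All 3 M0 libraries, and no M2 library, are labelled as a re-analysis, and whatever that label covers cannot be told apart from the absence of IL-4. Whether replicates were separate cultures is not stated, so a p-value here reflects the spread between libraries, and that spread may be technical. In bulk RNA, a change in the share of cells that express a gene and a change in RNA per cell cannot be told apart.

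In the cytosol, acetyl-CoA carboxylase makes malonyl-CoA and fatty acid synthase joins acetyl and malonyl units into palmitate, using NADPH. Stearoyl-CoA desaturases then place a double bond in saturated chains, ELOVL enzymes lengthen chains in the endoplasmic reticulum, and the front-end desaturases FADS1 and FADS2 work with ELOVL5 to make long polyunsaturated fatty acids from dietary precursors. Many of these genes are known targets of the transcription factors SREBP and liver X receptor, through which macrophages adjust membrane lipids to sterol load.

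In these cells the 10 genes made up a pathway in which 1 stearoyl-CoA desaturase, Scd2, outweighed all the others. Elovl1 rose with IL-4 and Fads1 fell, each by less than 2-fold. Elovl5 fell slightly, a call that held in 7 of 16 alternative analyses. Acacb was lower in every M2 library at about 1 TPM or less, and its call held in 8 of 15. It met the level filter only through M0, where it is higher, so that call is given only as a description. Fasn, Acaca, Scd2 and Fads2 did not pass the test, and Scd1 and Elovl6 had too few reads to test.

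The 3 elongase genes were very unequal: Elovl1 was higher in M2, Elovl5 lower, and Elovl6 was near 0 in both states. The 250 bases before the start of each of these genes are printed here, so that the sequences can be set beside the levels. Those of Fasn, which encodes fatty acid synthase, are printed with them. They were taken from RefSeq (build GRCm38.p6, of the same assembly as mm10), read 5′ to 3′ on the gene's strand; 7 of the 10 genes are in that promoter table. The windows are chr11:120824548-120824797 (minus strand) for Fasn, chr4:118427843-118428092 (plus strand) for Elovl1, chr9:77917115-77917364 (plus strand) for Elovl5 and chr3:129532136-129532385 (plus strand) for Elovl6. Capitals mark matches, on either strand, to 5 motifs: the sterol regulatory element TCACNCCAC, the E-box CACGTG, the CCAAT box, the GC box GGGCGG and the STAT6 half-site pair TTCNNNNGAA.
Fasn promoter: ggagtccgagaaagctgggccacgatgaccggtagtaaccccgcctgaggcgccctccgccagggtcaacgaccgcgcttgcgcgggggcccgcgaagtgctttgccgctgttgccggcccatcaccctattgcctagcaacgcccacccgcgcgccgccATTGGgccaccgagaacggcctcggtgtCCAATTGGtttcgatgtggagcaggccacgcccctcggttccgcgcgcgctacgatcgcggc
Elovl1 promoter: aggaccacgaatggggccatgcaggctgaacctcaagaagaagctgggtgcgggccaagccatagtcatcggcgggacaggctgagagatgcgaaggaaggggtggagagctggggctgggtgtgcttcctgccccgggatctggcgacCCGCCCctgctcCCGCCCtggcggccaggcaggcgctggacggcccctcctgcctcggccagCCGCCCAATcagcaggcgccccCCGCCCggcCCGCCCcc
Elovl5 promoter: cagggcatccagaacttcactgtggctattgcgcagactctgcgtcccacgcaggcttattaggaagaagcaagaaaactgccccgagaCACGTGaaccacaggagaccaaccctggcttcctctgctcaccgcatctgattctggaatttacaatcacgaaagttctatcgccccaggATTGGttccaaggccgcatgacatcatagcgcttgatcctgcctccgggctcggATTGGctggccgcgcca
Elovl6 promoter: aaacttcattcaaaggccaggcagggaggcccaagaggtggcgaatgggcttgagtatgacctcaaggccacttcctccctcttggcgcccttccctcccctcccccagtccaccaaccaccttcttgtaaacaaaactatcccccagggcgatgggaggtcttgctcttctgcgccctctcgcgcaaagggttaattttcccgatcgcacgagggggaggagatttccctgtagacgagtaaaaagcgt

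The Fasn window held 3 CCAAT boxes, of which 2 share bases, and none of the other motifs. That of Elovl1 held 5 GC boxes, read as CCGCCC on this strand, and 1 CCAAT box that shares bases with one of them. The Elovl5 window held 1 E-box and 2 CCAAT boxes, and the Elovl6 window held no match to any of the 5. Among all 32851 windows of this length in the promoter table, 33.8% held a CCAAT box, 32.7% a GC box, 6.02% the E-box, 5.85% the STAT6 motif and 1.05% the sterol regulatory element. Neither the sterol regulatory element nor the STAT6 motif was matched in the windows of the 7 genes, which says only that these letters are not in these 250 bases. The GC content was 69.2% for Fasn, 72.0% for Elovl1, 55.6% for Elovl5 and 56.4% for Elovl6.

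The depth, as reads worked back from TPM, was 15615725 to 19511192 per library. Summed over all deposited genes, TPM came to 550163 to 559556 per library, less than a full TPM total. Between libraries of 1 group the correlation of log2(TPM + 1) was at least 0.991, and across groups at most 0.975. M2 replicate 3 stood apart most by gene length. Against the mean of M2 replicates 1 and 2 its median was higher by 0.15 (log2) for 1280 genes under 1 kb. It was lower for long genes, at -0.41 for 387 genes over 8 kb. Within M0 the trends were weaker. Against the mean of the other M0 libraries, the medians under 1 kb and over 8 kb were 0.06 and -0.15 for M0 replicate 1. They were -0.07 and 0.13 for M0 replicate 2, and 0.01 and 0.02 for M0 replicate 3. All 8 macrophage markers examined were at 1 TPM or more in every library, and they summed to 2790 to 3028 TPM in M0, above the 2284 to 2409 TPM of M2. Of 6 adipocyte markers, 5 were under 1 TPM in every library, and the summed level, nearly all from Fabp4, which macrophages also express, was 25.1 to 28.7 TPM in M0 and 31.3 to 42.9 TPM in M2. Each of the 5 hepatocyte, 6 fibroblast, 4 epithelial and 5 lymphocyte markers was under 1 TPM. The part of the macrophage marker difference in the results that follow was not tested.

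Genes at 1 TPM or more in at least 3 libraries were tested, 11202 in all, with limma on log2(TPM + 1), and called at a Benjamini-Hochberg adjusted p under 0.05. This called 43.7% of all tested genes, 20.1% as risen and 23.7% as fallen. Of the 10 genes 8 were tested: 1 rose, 3 fell and 4 did not pass, with a median log2 fold change of -0.11 against -0.03 over all tested genes. Among the 3 that fell, Acacb met the level filter only through M0, where it is higher; with a filter at 5 TPM, which removes it, 2 fell. Groups did not overlap for 1 gene that was higher in M2 (25.1% of all tested genes) and 4 that were lower (30.8%). Without M2 replicate 3, 2 of the 8 rose (background 25.6%) and 1 fell (25.2%). With each library corrected for gene length, 2 rose (28.4%) and 3 fell (27.1%). The 3 that fell were then Scd2, Elovl5 and Fads1, while Acacb did not pass. With 8 genes tested against such a background, nothing is read from these counts about the pathway as a whole.

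**Figure D1:**
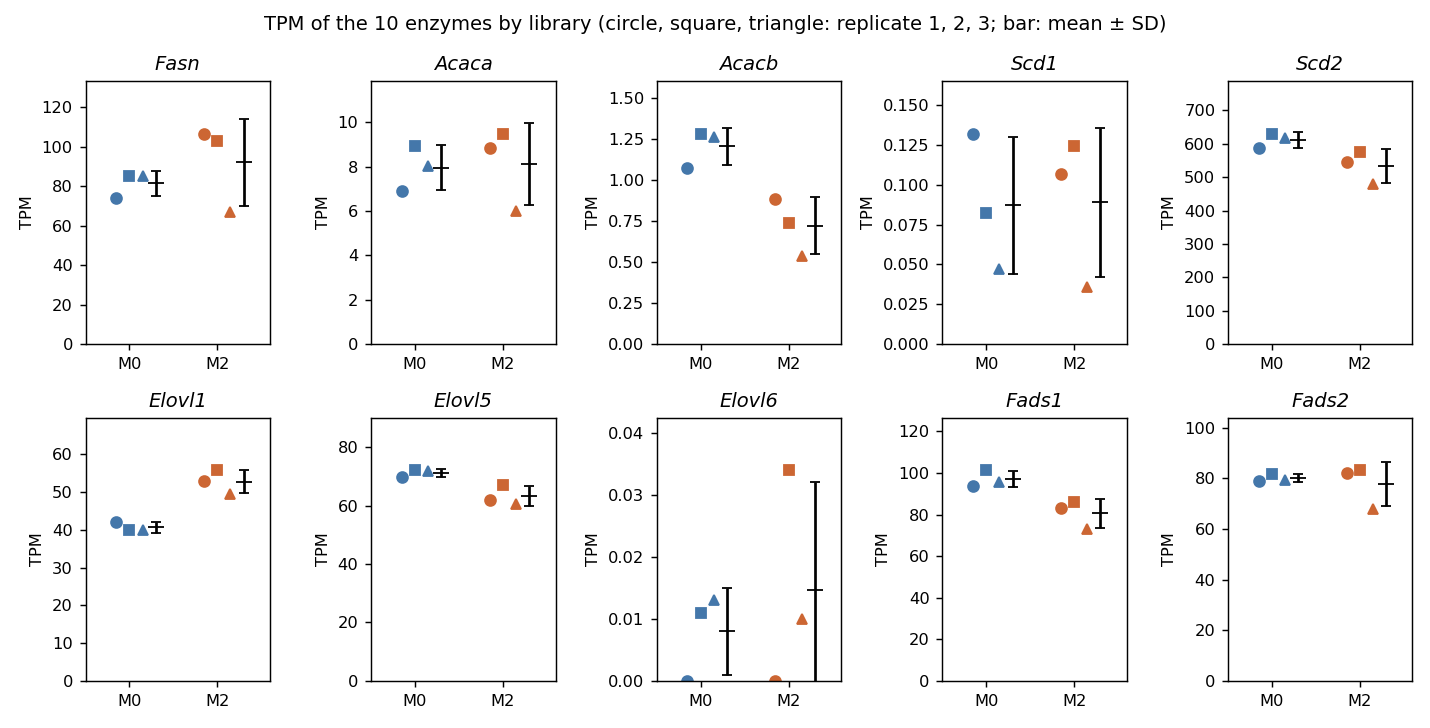
TPM (vertical axes, from 0, a scale for each gene) of the 10 genes in 3 M0 and 3 M2 libraries; points are libraries, with shapes for replicates 1, 2 and 3, and bars give the mean and SD. Elovl1 is higher in every M2 library, Acacb, Scd2, Elovl5 and Fads1 are lower in every M2 library, and the triangle of M2 replicate 3 lies lowest of the M2 libraries for all but Elovl6.

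Fasn, the multifunctional synthase that builds palmitate, is a model of 43 exons on chromosome 11 (120805958 to 120824547, minus strand). It stood at 74.2, 85.2 and 85.4 TPM in M0 replicates 1, 2 and 3, and at 106.7, 102.8 and 66.9 TPM in M2 replicates 1, 2 and 3. Thus 2 M2 libraries were above all M0 libraries and the third was below all of them. The mean was 81.6 ± 6.39 TPM in M0 and 92.1 ± 21.9 TPM in M2 (SD, n = 3 each). The log2 fold change was 0.15 (SE 0.16), and limma gave an adjusted p of 0.479. Without M2 replicate 3 it was 0.36 with an adjusted p of 0.00287 by limma, and with the gene length correction 0.31 with 0.00538; over 16 alternatives the adjusted p ran from 0.00287 to 0.91. The Fasn model is 9893 bases long, and M2 replicate 3 was lower than the other M2 libraries by 0.64 on the log2 scale, beyond the lower quartile (-0.53) of genes over 8 kb. Whether Fasn was called thus depended on M2 replicate 3 and on the length correction.

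Acaca encodes the cytosolic carboxylase that supplies malonyl-CoA to fatty acid synthase. It stood at 6.91, 8.93 and 8.02 TPM in the 3 M0 libraries and at 8.85, 9.48 and 6.01 TPM in the 3 M2 libraries, again with M2 replicate 3 lowest. The M0 values lay within the range of the M2 values, with a log2 fold change of 0.01 (-0.01 with upper-quartile scaling) and an adjusted p of 0.962 by limma. Without M2 replicate 3 the log2 fold change was 0.19 (SE 0.10, adjusted p 0.147 by limma), so no call was made either way. Its model of 54 exons spans 84195438 to 84401651 on chromosome 11 (plus strand).

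Acacb encodes the carboxylase of the outer mitochondrial membrane, whose malonyl-CoA restrains CPT1 and so fatty acid oxidation. It was at 1.08, 1.28 and 1.26 TPM in M0 and at 0.887, 0.74 and 0.539 TPM in M2, so every M2 library was below every M0 library. It passed the level filter only through its M0 libraries, where it is high, so its test is given as a description and supports nothing further. The mean was 1.67-fold lower in M2, and the reads behind it were 448 in M0 and 289 in M2. Its model of 52 exons spans 114165518 to 114250758 on chromosome 5 (plus strand). The log2 fold change on log2(TPM + 1), a scale that understates changes of low genes, was -0.36 (SE 0.12, adjusted p 0.0339 by limma). With no filter on level its adjusted p was 0.0386 by limma. The call was lost with the gene length correction (-0.22, adjusted p 0.112 by limma) and when any 1 library other than M2 replicate 1 was left out; over 15 alternatives the adjusted p ran from 0.00252 to 0.112. The authors' deposited table gives Acacb a log2 fold change of -0.71 with an adjusted p of 0.00173.

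The 2 carboxylase genes can be compared within a library, and their models are of like length, 8976 and 8431 bases. The ratio of Acaca to Acacb was 6.42, 6.95 and 6.36 in the M0 libraries and 9.98, 12.8 and 11.2 in the M2 libraries. It was 1.71-fold higher in M2, a log2 difference of 0.78, and did not overlap between the groups. On the authors' log2-scale values the difference was 0.37. Those values give Acacb a smaller change than the authors' own comparison (-0.33 against -0.71). The differences of 0.37 and 0.78 are therefore not on a like scale. An exact two-sided permutation test gave p = 0.1, the smallest that 3 against 3 libraries allow, and 0.125 after Benjamini-Hochberg adjustment over the 5 ratios tested here. M2 replicate 3, which was low for both genes, lay between the other M2 libraries in this ratio. The ratio of Fasn to Acaca, chosen after the values were seen, was 10.7, 9.54 and 10.6 in M0 and 12.1, 10.8 and 11.1 in M2, a factor of 1.10 (exact permutation p = 0.1, adjusted 0.125).

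**Figure D2:**
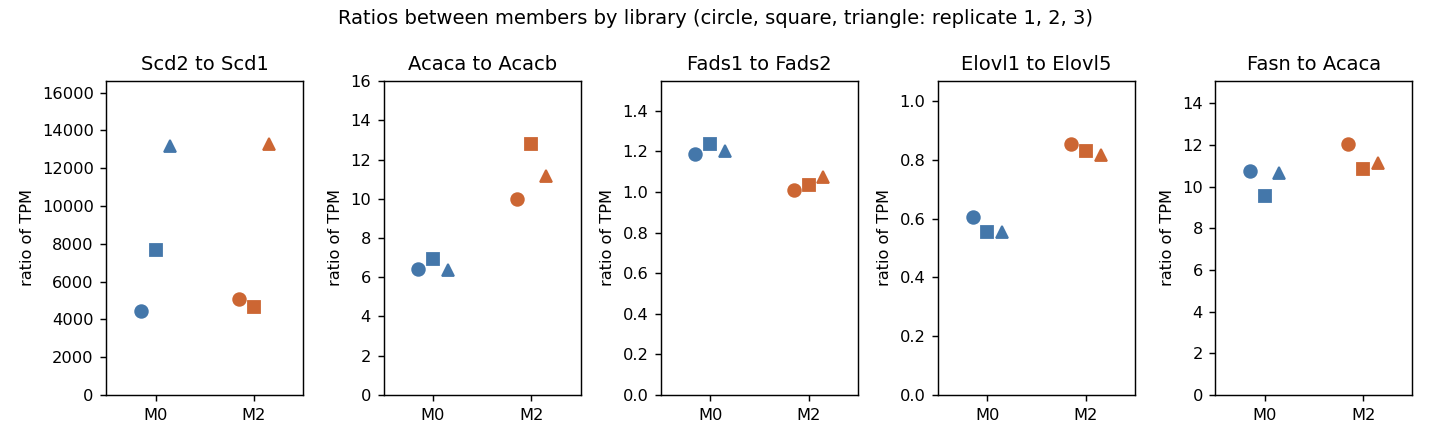
Ratios of TPM between related genes (vertical axes, from 0) in each M0 and M2 library; shapes stand for replicates 1, 2 and 3. Acaca to Acacb runs from 6.36 to 6.95 in M0 and from 9.98 to 12.8 in M2, Elovl1 to Elovl5 is higher and Fads1 to Fads2 lower in every M2 library, and Scd2 to Scd1 scatters in both groups.

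Scd2 carried the stearoyl-CoA desaturase signal, while Scd1, the main isoform of liver and fat, was close to absent. Scd2 is a model of 6 exons and 5443 bases on chromosome 19 (44293676 to 44306862, plus strand), and ranked 120 of 25124 genes by mean TPM in M0 and 133 in M2. Its level was 586, 630 and 618 TPM in M0 and 544, 577 and 478 TPM in M2. Every M2 library lay below every M0 library, but by little for M2 replicate 2. The log2 fold change was -0.20 (SE 0.08), and the adjusted p of 0.0596 by limma did not pass; over 16 alternatives, 5 of which passed, it ran from 0.0225 to 0.179. Without M2 replicate 3 the change was smaller (-0.13 on the log2 scale, adjusted p 0.0907 by limma). With the length correction it was also smaller (-0.11), but it passed (adjusted p 0.0326 by limma). The authors' deposited table gives a log2 fold change of -0.16 with an adjusted p of 0.0448. Scd2 made up 61.5% to 61.8% of the summed TPM of the 10 genes in M0 and 57.8% to 59.6% in M2, so its share was lower in every M2 library; these shares were not tested.

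Scd1 lies on the same chromosome (44394450 to 44407709, minus strand) and was at 0.132, 0.082 and 0.047 TPM in M0 and at 0.107, 0.124 and 0.036 TPM in M2. Only 19 reads in M0 and 20 in M2 stood behind these values, and the gene was not tested. The ratio of Scd2 to Scd1 ran from 4442 to 13149 in M0 and from 4653 to 13287 in M2, and an exact permutation test gave p = 1.0. Of the 50-base stretches of the Scd1 transcript, 3.03% occur unchanged in that of Scd2, so single reads of Scd1 could come from the far more abundant Scd2; how reads with several matches were treated is not stated. The other mouse paralogs were also low: Scd3 averaged 0.148 TPM in M0 against 0.0493 TPM in M2, and Scd4 averaged 1.13 against 1.21 TPM.

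Elovl1, which lengthens saturated and monounsaturated chains to very long chains used in sphingolipids, was the gene of the 10 that rose. It was at 42.2, 39.9 and 39.8 TPM in M0 and at 53.0, 55.7 and 49.6 TPM in M2, with no overlap. The mean rose 1.30-fold, from 40.6 ± 1.35 to 52.8 ± 3.08 TPM (SD, n = 3 each). The log2 fold change was 0.37 (SE 0.06, adjusted p 0.0017 by limma), and the call held in 16 of 16 alternatives, with an adjusted p from 0.000388 to 0.0117. Elovl1 is a model of 8 exons and 1800 bases on chromosome 4 (118428093 to 118432952, plus strand), and 53 of its exon bases, 2.93%, overlap those of Cdc20 on the opposite strand. Counting by strand is not stated, so reads from these bases cannot be assigned to either gene. The authors' deposited table gives a log2 fold change of 0.42 with an adjusted p of 2.6e-06.

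Elovl5, the elongase of polyunsaturated fatty acids on chromosome 9 (77917365 to 77984519, plus strand), fell slightly. Its levels were 69.7, 72.1 and 71.9 TPM in M0 and 62.0, 67.1 and 60.7 TPM in M2, without overlap. The log2 fold change was -0.17 (SE 0.06, adjusted p 0.0403 by limma), a mean 1.13-fold lower in M2. It passed in 7 of 16 alternatives, with an adjusted p from 0.0107 to 0.131, and leaving out any 1 library other than M2 replicate 2 ended the call. The authors' deposited table gives -0.13 with an adjusted p of 0.124. The ratio of Elovl1 to Elovl5, chosen after the values were seen, was 0.605, 0.553 and 0.554 in M0 and 0.855, 0.830 and 0.817 in M2, 1.46-fold higher and without overlap (exact permutation p = 0.1, adjusted 0.125).

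Elovl6, which lengthens palmitate to stearate, was at 0, 0.011 and 0.013 TPM in M0 and at 0, 0.034 and 0.01 TPM in M2. These levels rest on 2 reads in M0 and 4 in M2, and no fold is given. In replicate 1 of each group no read was found, which allows up to 0.0321 TPM in M0 and 0.0326 TPM in M2 (3 reads, counting error only). The model on chromosome 3 (129532386 to 129638493, plus strand) is 5942 bases long, and of its exon bases 3 overlap the antisense gene Gm35986. Of the other ELOVL genes, Elovl4, which acts on very long chains, rose from 14.7 ± 0.22 to 18.6 ± 1.14 TPM (SD, n = 3 each; log2 fold change 0.32, adjusted p 0.00624 by limma). Elovl2 was listed at 0 in every library, and Elovl3 and Elovl7 were under the level filter.

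Fads1 and Fads2, which lie close together on chromosome 19 and encode the front-end desaturases, gave different results. Fads1 (10182888 to 10196872, plus strand) stood at 93.8, 101.3 and 95.8 TPM in M0 and at 83.0, 85.9 and 72.9 TPM in M2, with every M2 library below every M0 library. It fell by 0.27 on the log2 scale (SE 0.07, adjusted p 0.0149 by limma), a mean 1.20-fold lower. The call held in 15 of 16 alternatives, with an adjusted p from 0.00114 to 0.0654, and was lost without M0 replicate 2. The authors' deposited table gives -0.23 with an adjusted p of 0.00389.

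Fads2 (10062765 to 10101503, minus strand) stood at 79.1, 81.8 and 79.5 TPM in M0 and at 82.1, 83.2 and 67.8 TPM in M2. The groups overlapped, with a log2 fold change of -0.05 (SE 0.08, adjusted p 0.643 by limma), which was 0.04 without M2 replicate 3 (adjusted p 0.445 by limma, 0.369 to 0.832 over 16 alternatives). The ratio of Fads1 to Fads2 was 1.19, 1.24 and 1.20 in M0 and 1.01, 1.03 and 1.07 in M2. It was lower in every M2 library, by 0.22 on the log2 scale (exact permutation p = 0.1, the smallest possible, adjusted 0.125). In the authors' deposited comparison table Fads2 has a shorter model, 1485 bases in place of 2893.

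**Figure D3:**
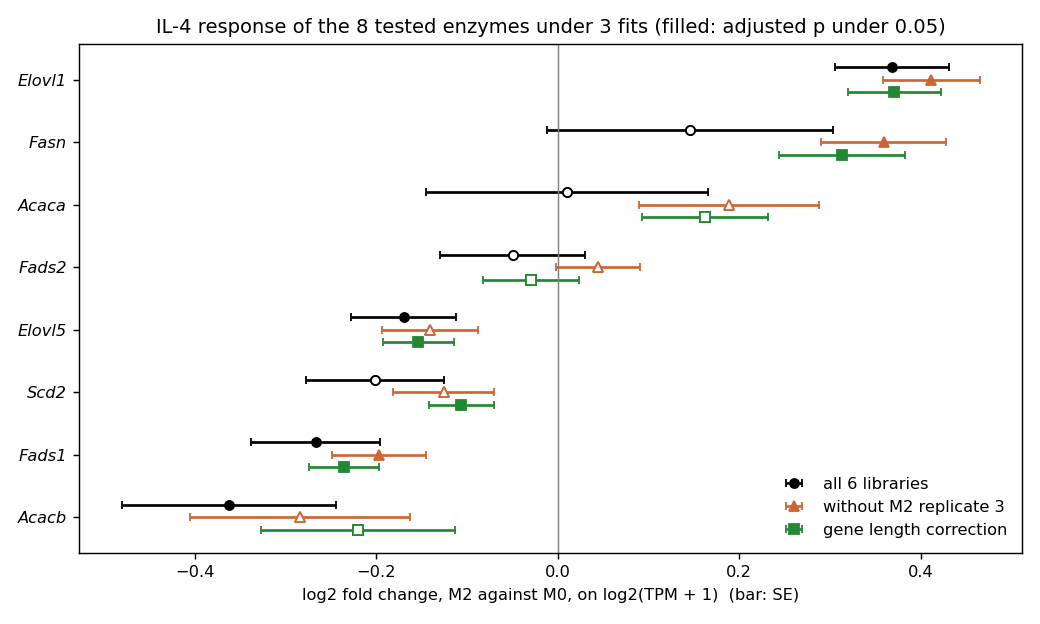
Log2 fold change of M2 against M0 (horizontal axis, on log2(TPM + 1), bars are SE) for the 8 tested genes with all 6 libraries, without M2 replicate 3, and with the gene length correction; filled symbols have an adjusted p under 0.05 by limma. Elovl1 and Fads1 are filled in all 3 fits, and Fasn is filled only where M2 replicate 3 is left out or the length correction is made.

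Ordered by mean TPM in M0, the genes ran Scd2, Fads1, Fasn, Fads2, Elovl5, Elovl1, Acaca, Acacb, Scd1 and Elovl6. Fasn and Fads2 overlapped in that order, and each other pair of neighbours was apart. In M2, Fasn, Fads1 and Fads2 overlapped one another, Fasn also reached down to the range of Elovl5, and the rest kept their places. The summed level of all 10 genes was 954, 1021 and 999.8 TPM in M0 and 940.8, 982 and 803 TPM in M2, so the sums overlapped and M2 replicate 3 was lowest.

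For all 8 tested genes M2 replicate 3 was below the mean of M2 replicates 1 and 2, and most so for Fasn and Acaca. The difference on log2(TPM + 1) was -0.53 for Acaca, -0.24 for Acacb and -0.23 for Scd2, on models over 4 kb. The median was -0.41 for 387 genes over 8 kb, where Acaca and Acacb belong. For 2537 genes of 4 to 8 kb, where Scd2 belongs, it was -0.25. This scale understates changes of low genes such as Acacb. The difference was -0.21 for Fads1, -0.28 for Fads2 and -0.09 for Elovl5, on models of 2 to 4 kb, where the median of 4333 genes was -0.11. For Elovl1, the shortest model, it was -0.13, while 2665 genes of 1 to 2 kb had a median of 0.03. The cause of the length trend was not tested.

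**Figure D4:**
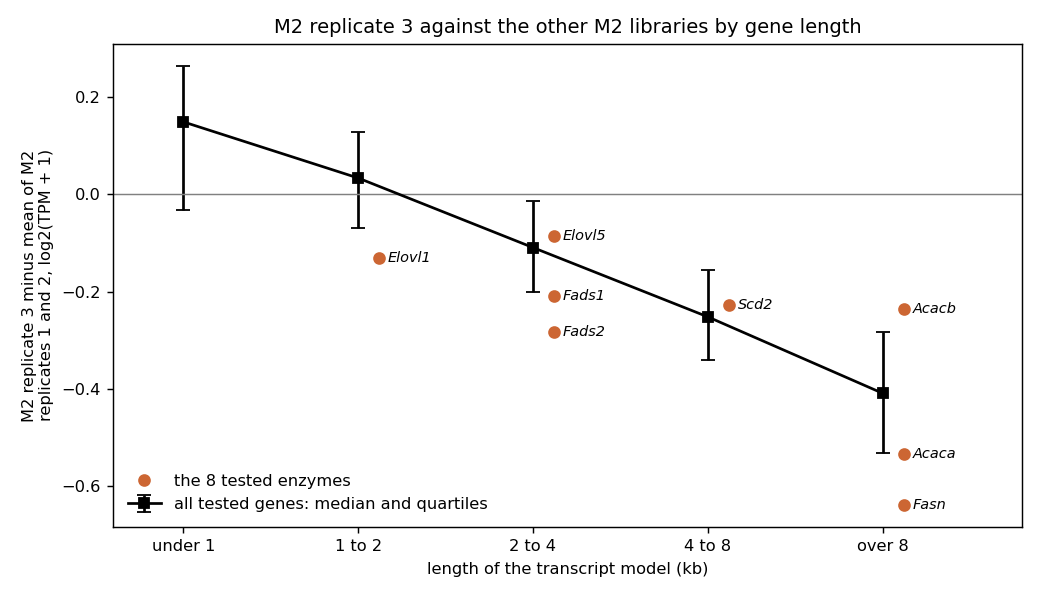
Difference of M2 replicate 3 from the mean of M2 replicates 1 and 2 on log2(TPM + 1) (vertical axis) by length of the transcript model in kb (horizontal axis, 5 bins); squares and bars are the median and quartiles of all tested genes, circles the 8 tested enzymes. The median falls from 0.15 under 1 kb to -0.41 over 8 kb, and Fasn lies lowest of the enzymes at -0.64.

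The genes around the pathway were taken from 7 lists with 89 tested genes, of which 19 rose and 19 fell, where 20.1% of all tested genes rose and 23.7% fell. Counts of single lists in this fit are to be read against these shares. Of all 11202 tested genes, 25.6% rose and 25.2% fell without M2 replicate 3, and 28.4% and 27.1% with the length correction. Limma-voom called 2453 as risen and 2894 as fallen. When 1 library was left out, 1646 to 2869 rose and 1902 to 2825 fell. No such share was computed at an unadjusted p under 0.05. Of 7 tested genes of acetyl-CoA and NADPH supply, 3 fell and 1 rose, with a median log2 fold change of -0.12. Acss2, which makes acetyl-CoA from acetate, fell 1.44-fold (23.5 to 16.4 TPM, adjusted p 0.00108 by limma). G6pdx and Pgd, the NADPH-yielding enzymes of the pentose phosphate pathway, fell 1.27-fold and 1.18-fold (adjusted p 0.00243 and 0.00457 by limma). Idh1, the cytosolic isocitrate dehydrogenase that also yields NADPH, rose 1.20-fold from 119 to 143 TPM (adjusted p 0.00686 by limma). These counts were the same without M2 replicate 3 and with the length correction. Acly, which makes cytosolic acetyl-CoA from citrate, did not pass, with 124 ± 6.46 TPM in M0 against 116 ± 11.2 TPM in M2 (SD, n = 3 each).

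Among genes that regulate the carboxylases or handle malonyl-CoA, 9 of 11 were tested, 1 rose and 2 fell, with a median of -0.12. Mid1ip1, whose protein promotes polymerization of acetyl-CoA carboxylase, was at 32.8, 35.8 and 35.6 TPM in M0 and at 20.6, 18.9 and 21.6 TPM in M2. It fell 1.70-fold (log2 fold change -0.74, SE 0.07, adjusted p 8.4e-05 by limma), with no overlap. Hlcs, which attaches biotin to the carboxylases, fell 1.42-fold (adjusted p 0.0146 by limma, passing in 14 of 16 alternatives). Prkag2, a regulatory subunit of AMPK, the kinase that inhibits the carboxylases, rose 1.56-fold from 10.3 to 16.1 TPM (adjusted p 0.000366 by limma). Leaving out M2 replicate 3 gave 2 that rose and 2 that fell (25.6% and 25.2% of all tested genes). The length correction gave 3 and 2 (28.4% and 27.1%). Without M0 replicate 2, 1 gene fell.

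The other elongation and desaturation genes moved both ways: of 17, 11 were tested, 5 rose and 3 fell, with a median of 0.04. Hacd1, a dehydratase of the elongation cycle, was at 16.2, 17.4 and 16.2 TPM in M0 and 32.0, 34.7 and 38.4 TPM in M2. It rose 2.11-fold (log2 fold change 1.03, SE 0.08, adjusted p 2.43e-05 by limma), a larger change than that of any of the 8 tested enzymes on the log2 scale. Its paralog Hacd3 rose 1.35-fold, while Hacd4 fell 1.19-fold. Tecr, the reductase of the last step of the cycle, fell 1.14-fold, and Hsd17b12, the reductase of its second step, rose 1.14-fold. Cyb5r3, which passes electrons to the desaturases through cytochrome b5, fell 1.25-fold (adjusted p 0.00165 by limma), and Cyb5b, the outer mitochondrial membrane cytochrome b5, rose 1.14-fold (adjusted p 0.0438 by limma). Of the 16 alternatives, Cyb5b passed in 9, Hsd17b12 in 10, Tecr in 11 and Hacd4 in 12, and the others named in all. The counts were the same without M2 replicate 3 and with the length correction. They dropped to 3 that rose when any 1 of the other 5 libraries was left out, and to 1 that fell when any 1 M0 library was left out.

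**Figure D5:**
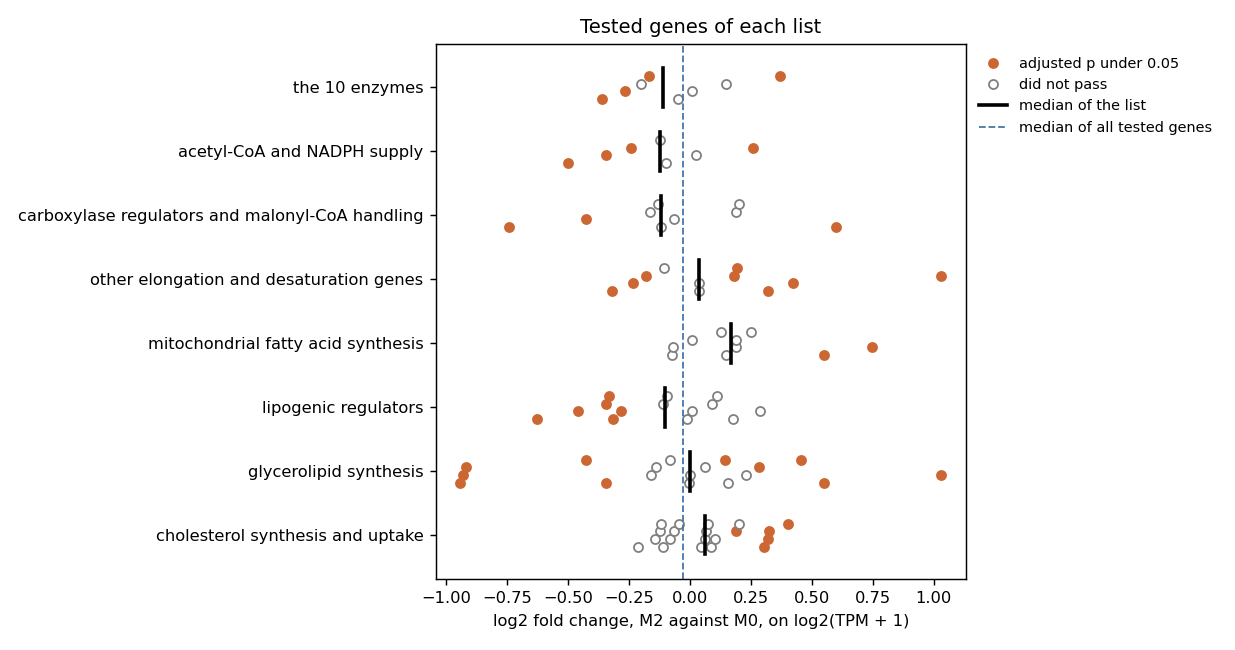
Log2 fold change of M2 against M0 (horizontal axis, on log2(TPM + 1)) of each tested gene, by list (vertical axis); filled points passed at an adjusted p under 0.05 by limma, black bars are list medians, and the dashed line is the median of all 11202 tested genes. In this fit, points of the lipogenic regulators that passed all lie below 0, and those of cholesterol synthesis and uptake all above 0.

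Of the known transcriptional regulators of these enzymes, 14 of 15 were tested, 6 fell and 0 rose by limma (23.7% and 20.1% of all tested genes), with a median of -0.10. At an unadjusted p under 0.05, 1 rose and 6 fell, and limma-voom on recovered reads called the same numbers. Srebf1, which encodes the SREBP that drives fatty acid synthesis, stood at 68.4, 72.1 and 75.1 TPM in M0 and at 59.0, 60.5 and 53.2 TPM in M2, and fell 1.25-fold (adjusted p 0.00509 by limma). Srebf2, the sterol-directed SREBP gene, stood at 141.0, 153 and 154 TPM in M0 and 132, 126 and 97.3 TPM in M2, lowest in M2 replicate 3. It fell 1.26-fold (adjusted p 0.0288 by limma), and the call was lost without M0 replicate 2 (0.0824), without M0 replicate 3 (0.0911) and with no filter on level (0.0870), over a range of 0.00561 to 0.0911 in all alternatives. Its log2 fold change was -0.34, and -0.21 without M2 replicate 3.

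Usf1, an E-box factor known to act on the Fasn promoter, fell 1.56-fold from 42.7 to 27.3 TPM (adjusted p 0.000138 by limma), and Usf2 fell 1.22-fold. Nr1h2, which encodes liver X receptor beta, fell 1.39-fold from 45.8 ± 1.15 to 33.0 ± 1.31 TPM (SD, n = 3 each; adjusted p 0.000352 by limma), and its partner gene Rxra fell 1.29-fold, passing in 14 of 16 alternatives. Nr1h3, which encodes liver X receptor alpha, averaged 0.9 TPM in M0 against 1.32 TPM in M2, with an adjusted p of 0.0505 by limma, which passed in 7 of 15 alternatives. With an M0 mean under 1 TPM, it could not meet the level filter without M2 libraries, where it is higher. Its test is therefore given as a description and supports nothing further. Insig1, which retains SREBP in the endoplasmic reticulum, was at 64.7 ± 0.319 and 65.1 ± 3.74 TPM (SD, n = 3 each; log2 fold change 0.01, and -0.01 with upper-quartile scaling) and did not pass, and Mlxipl, which encodes ChREBP, had means of 0.0147 and 0.00633 TPM. Without M2 replicate 3, 2 regulators rose and 6 fell (25.6% and 25.2% of all tested genes). With the length correction 3 rose and 6 fell (28.4% and 27.1%). These are transcript levels, and SREBP activity is set mainly by cleavage of the protein, which was not measured.

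Glycerolipid synthesis, which uses the fatty acids made here, split evenly: of 18 tested genes 5 rose and 5 fell, with a median of -0.00. Dgat2, which makes triacylglycerol, rose 2.79-fold from 1.44 to 4.01 TPM (adjusted p 0.000209 by limma). Acsl1 and Acsl5, acyl-CoA synthetases, and the acyltransferase genes Agpat2 and Agpat5 also rose, by 1.48-fold, 1.11-fold, 1.22-fold and 1.38-fold. Gpat3 fell 2.23-fold, Agpat4 1.98-fold, Lpin1 2.10-fold and Lpin2 1.29-fold. These act on the way to diacylglycerol, as do Agpat2 and Agpat5, which rose. Plin2, a lipid droplet coat gene, fell 1.35-fold from 188 to 139.8 TPM (adjusted p 0.000205 by limma). Of the 16 alternatives, Acsl5 passed in 8 and Lpin2 in 13, and the others named in every alternative in which they were tested. The counts were 6 and 5 without M2 replicate 3 (25.6% and 25.2% of all tested genes), and 7 and 5 with the length correction (28.4% and 27.1%).

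Cholesterol synthesis and uptake had 20 of 22 genes tested, of which 5 rose and 0 fell by limma (20.1% and 23.7% of all tested genes), with a median of 0.06. At an unadjusted p under 0.05, 6 rose and 0 fell, and limma-voom called the same numbers. Cyp51 rose 1.33-fold from 54.1 to 71.7 TPM, Msmo1 1.24-fold, Idi1 1.27-fold, Mvd 1.14-fold and Hsd17b7 1.27-fold, all enzymes of the sterol pathway. Of the 16 alternatives, Hsd17b7 passed in 11 and Mvd in 12, and the other 3 in all. Leaving out M2 replicate 3 gave 6 that rose and 2 that fell (25.6% and 25.2% of all tested genes). The length correction gave 10 and 2 (28.4% and 27.1%). Without M0 replicate 1, M0 replicate 3 or M2 replicate 1, 3 rose. Mitochondrial fatty acid synthesis, a separate pathway that yields the lipoic acid precursor, had 10 genes tested, of which 2 rose and 0 fell by limma, with a median of 0.17. At an unadjusted p under 0.05, 5 rose and 0 fell, again with no such share, and limma-voom called 4 and 0. Lipt1 rose 1.81-fold and Lipt2 1.53-fold, both lipoyl transferase genes. Without M2 replicate 3, 3 rose (25.6% of all tested genes), and with the length correction 5 (28.4%).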

How the data were processed

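RNA levels of 3 M0 and 3 M2 libraries of RAW264.7 cells, grouped by sample title, were used from 2 deposited tables. One gives TPM as computed by the authors for 25124 genes, and names for each gene the transcript model used and its length, per the file headers. The second, also deposited by the authors, covers 24421 genes with values per library, read as log2-scale from their range, and with the p-values (raw and adjusted) and log2 fold changes of the authors' own comparison. The tools in the submitters' processing notes are STAR 2.7.5a, HOMER 4.11.1, bcl2fastq and DESeq2, with the build mm10; which step each served, the annotation, the strand setting and the treatment of reads with several matches are not stated there.

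No table holds counts as deposited, so the count branch of the design was not used. Genes at 1 TPM or more in at least 3 libraries (11202) were fitted on log2(TPM + 1) using limma 3.58.1 (R 4.3.3) with group as the only term and a variance trend, and called at a Benjamini-Hochberg adjusted p under 0.05 over all tested genes. Whole reads could be recovered from TPM times model length: where the rounding of TPM allowed a check, 100.0% of values were within 0.1 of a whole read in each library. The reads recovered in this way served for depth and for limma-voom. No library pair was a duplicate, since within groups the recovered reads gave a chi-square of 2.13 to 18.6 per degree of freedom. Folds are ratios of mean TPM. Ratios between members were tested by exact permutation with scipy 1.17.1. The planned ratios to Elovl6 could not be computed, since it is listed at 0 in 2 libraries. The fit was tested only on simulated reads that had no length trend. That test therefore does not cover the length trend of M2 replicate 3. Gene models and overlaps came from GENCODE, promoter sequences from RefSeq.

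The 10 genes and the lists were chosen with earlier results of these data known. The text names all 10 genes, for each list the 4 passing genes lowest in adjusted p, those that complete a count of 5 or fewer, and Srebf1, Srebf2, Insig1, Nr1h3, Nr1h2 and Mlxipl whatever their result. Acly, Elovl2, Elovl3, Elovl7, Scd3 and Scd4 were named after their values were seen. Hsd17b8 is listed as H2-Ke6. Alternatives were another pseudocount (0.1), no filter or one at 5 TPM, median-ratio or upper-quartile scaling, no variance trend, the authors' log2-scale values, limma-voom, a gene length correction, a replicate block, and leaving out each library.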

Additional observations from a re-analysis of the deposited data

How the results depend on the processing

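Across 16 alternatives the number of the 10 enzymes that rose was 1, and 2 with the gene length correction; leaving out 1 library gave 1 to 2. The number that fell was 3, with 2 to 4 in the alternatives that kept all libraries: 2 with no filter, the 5 TPM filter, median-ratio scaling, no variance trend or the authors' log2-scale values, and 4 with upper-quartile scaling or limma-voom. It was 0 to 3 when 1 library was left out: 1 without M0 replicate 1, M0 replicate 3 or M2 replicate 3, and 0 by limma without M0 replicate 2, where 2 passed at an unadjusted p under 0.05. For genes of the 7 lists that rose, 19 became 29 with median-ratio scaling and 34 with the gene length correction. It was 14 to 25 when 1 library was left out. The number of all tested genes that rose also moved, from 2248 to 2638 with median-ratio scaling and 3182 with the gene length correction. It was 1646 to 2869 when 1 library was left out. The list counts are therefore to be read against these numbers, and a gain particular to the lists was not tested. On the authors' log2-scale values the difference of the ratios (M2 minus M0, log2) was 0.37 for Acaca to Acacb against 0.78. It was -0.12 for Fads1 to Fads2 against -0.22, and 0.44 for Elovl1 to Elovl5 against 0.55. Those values give smaller changes than the authors' own comparison (Acacb -0.33 against -0.71, Elovl1 0.33 against 0.42). These differences are therefore not on a like scale. Signs turned for values near 0. The log2 fold change of Acaca was -0.01 (-0.008) with upper-quartile scaling and -0.10 to 0.19 when 1 library was left out. That of Fads2 was 0.0446 without M2 replicate 3, with a range of -0.10 to 0.04. That of Insig1 was -0.01 (-0.012) with upper-quartile scaling, with a range of -0.024 to 0.0545. The ratio of Scd2 to Scd1 ranged from -0.65 to 0.22. Elovl1 passed in every alternative run. The cause of these changes was not tested, except that leaving out a library tests fewer samples. Whether same-numbered libraries share a culture or day is not stated. The correlations of their deviations from the group means were -0.03, 0.21 and 0.03 for numbers 1, 2 and 3. From so few libraries these values cannot settle whether the samples were paired. With the replicate block, 1 of the enzymes rose and 3 fell; Acacb did not pass (adjusted p 0.0545 by limma) and Scd2 did (0.0434). Depth limits Scd1 and Elovl6, which had at most 20 reads per group.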
